A study of Homo sapiens with 18 samples.

Results

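Among the glucocorticoid receptor (GR) binding regions (GBR) that were called in Hic-5 depleted cells but not in cells containing Hic-5, a group of 268 was missing from the peak list of cells also depleted of BRM while an overlapping peak stood in the list of cells also depleted of CHD9. These 268 GBR were selected by their calls in 4 peak lists, with an overlap of at least 1 bp counting as a call. Each had a siHic5/siNS peak, no siNS/siNS peak, no siBRM/siHic5 peak and a siCHD9/siHic5 peak. They were 268 of the 9533 siHic5/siNS GBR and of the 7059 blocked GBR, the siHic5/siNS GBR without a siNS/siNS peak. Here they are called BRM-lost GBR, where lost means that no peak was listed.

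The cells were U2OS-GRα, a human osteosarcoma line stably transformed to express GRα, so the receptor came from an introduced gene. They were transfected with pairs of siRNA for 48 h and given 100 nM dexamethasone (dex), a synthetic glucocorticoid, for 1 h before ChIP-seq with GR antibody. The 6 combinations were siNS/siNS, with non-specific siRNA alone, then siHic5/siNS, siCHD9/siNS and siBRM/siNS, in which Hic-5, CHD9 or BRM was depleted, and the double depletions siCHD9/siHic5 and siBRM/siHic5. Each combination had 2 ChIP replicates and 1 input library, and the replicates had been pooled into 1 peak list per combination, so that the lists give no spread between replicates and every test below compares regions of single lists, not replicated conditions.

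GR is a ligand-activated transcription factor that binds the glucocorticoid response element (GRE), an inverted repeat, and often lies on DNA beside other factors such as AP-1, the Fos and Jun dimers. Hic-5 (TGFB1I1) is a focal adhesion and nuclear protein that acts as a coregulator of steroid receptors. BRM (SMARCA2) is an ATPase of the SWI/SNF remodeling complexes, and CHD9 is a chromodomain helicase of the CHD family. Both use ATP to move or open nucleosomes.

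The sequences that carry the main comparison are the AP-1 and GRE matches near the summits of BRM-lost GBR. The following 200-bp windows were read from GRCh38/hg38 on the plus strand, centred on the siHic5/siNS summit, and each is named by the nearest protein-coding transcription start site (TSS) or by the gene that holds it. The nearest TSS can be far away, as at 468 kb for TBX3 and 658 kb for SORCS1. Capitals mark AP-1 matches (TGACTCA or TGAGTCA, which are each other's reverse complement) and the longer GRE matches. The windows show an AP-1 match without a GRE (TBX3, ERCC1, ZNF469), both motifs side by side (F3) and a GRE without an AP-1 match in these 200 bp (CDK6, SORCS1).
TBX3, chr12:115151638-115151837: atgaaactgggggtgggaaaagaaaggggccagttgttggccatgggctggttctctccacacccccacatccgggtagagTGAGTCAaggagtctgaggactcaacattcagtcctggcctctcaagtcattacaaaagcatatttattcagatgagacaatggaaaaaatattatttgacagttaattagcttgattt
ERCC1, chr19:45424415-45424614: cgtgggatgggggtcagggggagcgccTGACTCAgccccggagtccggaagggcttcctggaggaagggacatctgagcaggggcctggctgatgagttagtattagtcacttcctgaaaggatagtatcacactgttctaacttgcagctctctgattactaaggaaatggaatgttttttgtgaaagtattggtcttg
ZNF469, chr16:88315755-88315954: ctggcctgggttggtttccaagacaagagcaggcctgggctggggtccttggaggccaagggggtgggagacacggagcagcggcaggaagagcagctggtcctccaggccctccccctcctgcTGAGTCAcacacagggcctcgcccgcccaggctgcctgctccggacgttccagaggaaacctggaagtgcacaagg
F3, chr1:94545161-94545360: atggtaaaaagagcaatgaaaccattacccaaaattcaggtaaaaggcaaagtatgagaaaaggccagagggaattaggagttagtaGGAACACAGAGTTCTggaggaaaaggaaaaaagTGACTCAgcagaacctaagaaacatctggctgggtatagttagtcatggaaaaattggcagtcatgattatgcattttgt
CDK6, chr7:92633575-92633774: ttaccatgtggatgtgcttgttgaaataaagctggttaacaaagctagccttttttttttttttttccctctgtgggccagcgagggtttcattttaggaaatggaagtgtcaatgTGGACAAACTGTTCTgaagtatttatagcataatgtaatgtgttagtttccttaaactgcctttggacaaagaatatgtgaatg
SORCS1, chr10:106506633-106506832: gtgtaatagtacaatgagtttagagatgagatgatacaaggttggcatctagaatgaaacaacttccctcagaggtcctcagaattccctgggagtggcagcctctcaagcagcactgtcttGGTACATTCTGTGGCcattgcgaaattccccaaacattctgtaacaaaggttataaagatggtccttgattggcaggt

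At the promoter of CXCL8, which encodes the neutrophil chemokine interleukin-8, the AP-1 match of a BRM-lost GBR ended 131 bp before the TSS. It is shown on the plus strand with its match in capitals because it places the motif at a gene start.
CXCL8, chr4:73740420-73740449: taggaagtgtgaTGACTCAggtttgccctg

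The values that chose the GBR are given first, as a description. The −log10 p-value of the BRM-lost GBR in the siHic5/siNS list ran from 12.2 to 73.7, with a median of 24.8 and quartiles of 18.7 and 33.3. Their ranks in that list ran from 862 to 9341, 2 were among its strongest 1000 peaks, and 108 had a rank past its middle. The 783 blocked GBR with the opposite calls, absent from siCHD9/siHic5 and present in siBRM/siHic5 (CHD9-lost GBR), had a median of 29.6. The median was 17.2 for the 5609 blocked GBR lost in both double depletions and 38.0 for the 399 called in both.

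In the siCHD9/siHic5 list the peaks at the BRM-lost GBR were weak. Their −log10 p-values had a median of 13.9, with a lowest value of 11.5 and a highest of 30.9, whereas the 399 GBR called in both had a median of 16.5 in the same list. Each of the 268 GBR overlapped a different siCHD9/siHic5 peak, and in 266 of them the siHic5/siNS summit lay inside it. The distance between the summits of the 2 lists had a median of 25 bp. The signal value, the enrichment the peak caller gave, had a median of 7.69 in siHic5/siNS and 5.30 in siCHD9/siHic5, and 36 of 268 had the higher signal value in siCHD9/siHic5. The 2 lists were scaled separately.

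The threshold of the lists bears directly on the name of the group. The lowest −log10 q-value was 14.2 in the siBRM/siHic5 list and 7.74 in the siCHD9/siHic5 list. Of the 268 siCHD9/siHic5 peaks at BRM-lost GBR, 220 (82.1%) had a −log10 q-value below 14.2, so that a peak with the same value would not have stood in the siBRM/siHic5 list. The other 48 were at or above it, and for 45 of these the siHic5/siNS peak was also at or above it. When all 6 lists were cut at 14.2, 52 GBR met the rule, against 1350 with the opposite pattern. For the 220, absence of GR after BRM depletion and a stricter list cannot be told apart. For the other 48, the lists show only that no siBRM/siHic5 peak at or above 14.2 was listed. Whether weaker GR signal was present there was not tested.

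**Figure D1:**
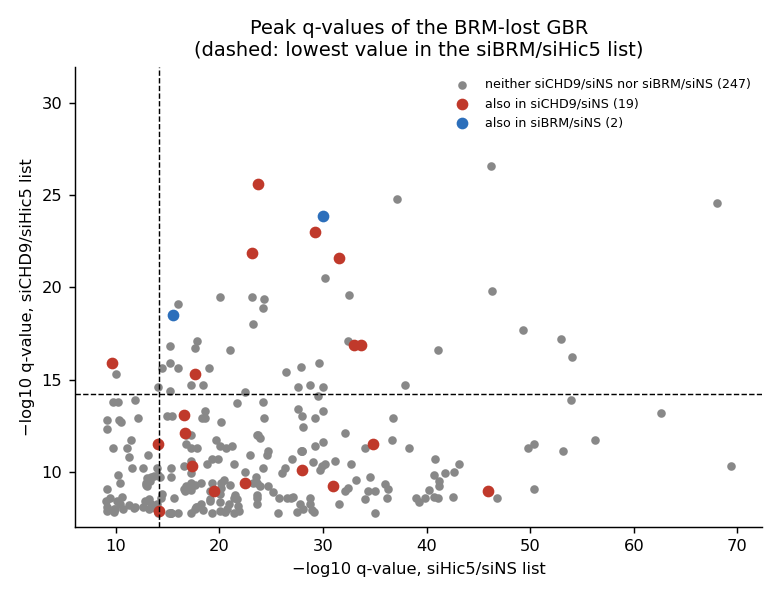
Each point is 1 of the 268 BRM-lost GBR, with the −log10 q-value of its siHic5/siNS peak on the x axis and of its siCHD9/siHic5 peak on the y axis. The dashed lines stand at 14.2, the lowest value in the siBRM/siHic5 list, and 220 points lie below the horizontal line. Red and blue points are the 19 and 2 GBR that also had a peak in the siCHD9/siNS or siBRM/siNS list.

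At the edges of the rule, the smallest overlaps of BRM-lost GBR with a siCHD9/siHic5 peak were 209, 234 and 237 bp, and the nearest siCHD9/siHic5 peaks to GBR lost in both were 130, 140 and 150 bp away. The nearest siBRM/siHic5 peaks to BRM-lost GBR were 148, 234 and 334 bp away, while the smallest overlaps with that list among GBR called in both were 298, 303 and 307 bp. The nearest siNS/siNS peaks were 190, 357 and 483 bp away. Few GBR were close to the border, with 6 of 268 having a siBRM/siHic5 peak within 500 bp and 220 having none within 10 kb. Of the 9533 siHic5/siNS GBR, 26.0% had a siNS/siNS peak, 24.6% a siCHD9/siHic5 peak and 34.6% a siBRM/siHic5 peak. Among the 7059 blocked GBR, 9.45% had a siCHD9/siHic5 peak and 16.7% a siBRM/siHic5 peak.

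The siCHD9/siNS and siBRM/siNS lists came from cells that kept Hic-5 and were not used by the rule. They ask whether GR was called at these GBR when 1 remodeler was depleted and Hic-5 was present. Each remodeler was also depleted in a list that chose the classes, so these calls are not independent of the rule. A siCHD9/siNS peak overlapped 19 of the 268 BRM-lost GBR (7.09%, Wilson 95% interval 4.59 to 10.8%) and 13 of the 783 CHD9-lost GBR (1.66%, interval 0.973 to 2.82%). The share over all siHic5/siNS GBR was 14.5%, and over the blocked GBR 2.04%. The difference between BRM-lost and CHD9-lost GBR was larger than counting error (odds ratio 4.52, 2-sided Fisher's exact test, p = 3.82e-05). The BRM-lost share was above that of GBR lost in both (7 of 5609, 0.125%, adjusted p = 1.75e-20) and below that of GBR called in both (105 of 399, 26.3%, adjusted p = 1.42e-10), both by Fisher's exact test. These intervals cover counting error only. The 2 classes chosen for a siCHD9/siHic5 peak stood at 7.09% and 26.3%, and the 2 chosen for lacking one at 1.66% and 0.125%. CHD9 was depleted in both lists, so these tests cannot separate a trait of the BRM-lost GBR from the call that chose the classes.

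When every list was cut at a −log10 q-value of 14.2, the classes were drawn anew and their GBR changed. Of the 52 GBR that then met the rule, 0 had a siCHD9/siNS peak, against 0.519% of the 1350 with the opposite calls (Fisher's exact test, p = 1.00). The difference thus rested on peaks weaker than that cutoff. Almost no siCHD9/siNS peak at these GBR remained above it, so this test could not show whether stronger peaks differed. With the classes as first drawn, the difference stood when BRM-lost and CHD9-lost GBR were compared within 5 groups of equal size by siHic5/siNS strength (common odds ratio 4.63, Cochran-Mantel-Haenszel chi-square test, p = 9.39e-06).

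The siBRM/siNS list held 2 of the 268 BRM-lost GBR (0.746%, interval 0.205 to 2.68%) and 16 of the 783 CHD9-lost GBR (2.04%, interval 1.26 to 3.29%). The share over all siHic5/siNS GBR was 13.1%, and over the blocked GBR 0.524%. With 2 GBR the difference between BRM-lost and CHD9-lost GBR did not pass the test (odds ratio 0.360, Fisher's exact test, p = 0.272). With the 4 lists longer than 2400 peaks reduced to their 2400 strongest, and the siCHD9/siNS and siBRM/siNS lists left whole at 1415 and 1278 peaks, the shares were 0 of 102 and 7.09% of 141 (Fisher's exact test, p = 0.00586). As first drawn, BRM-lost GBR stood above GBR lost in both (4 of 5609, 0.0713%, adjusted p = 0.0275, Fisher's exact test). They stood below GBR called in both (15 of 399, 3.76%, adjusted p = 0.0212, Fisher's exact test). Classes with a siBRM/siHic5 peak stood at 2.04% and 3.76%, and those without one at 0.746% and 0.0713%. Both lists come from BRM-depleted cells, so these tests cannot separate a group trait from the call that chose the classes. None of the BRM-lost GBR was in both single-depletion lists (0 of 268), and 247 had no peak in either.

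**Figure D2:**
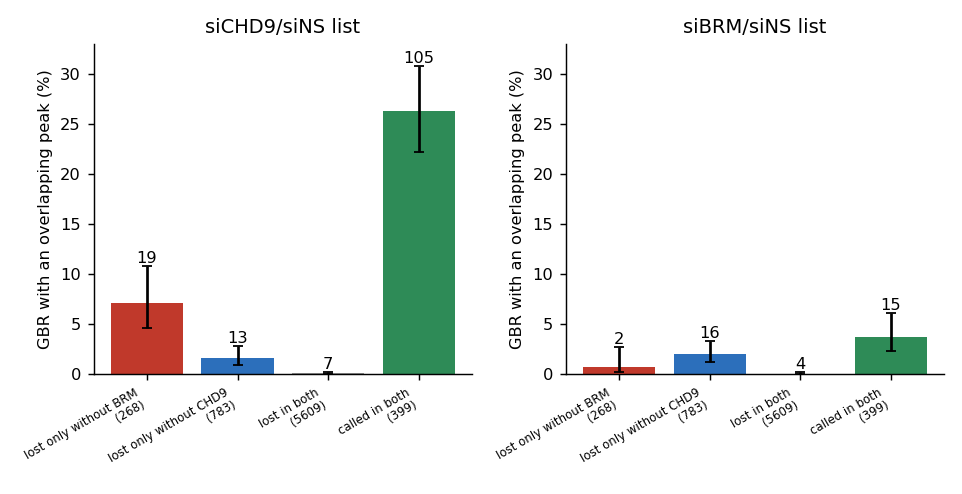
Bars give the percent of each class of blocked GBR with an overlapping peak in the siCHD9/siNS list (left) or the siBRM/siNS list (right), with the number of GBR above each bar and Wilson 95% intervals for counting error. The BRM-lost GBR stand at 7.09% and 0.746%, and the CHD9-lost GBR at 1.66% and 2.04%.

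The 5 BRM-lost GBR with the strongest peaks in a single-depletion list all had them in siCHD9/siNS. The strongest was at chr16:88315676-88316207, intergenic and 67.1 kb upstream of the TSS of ZNF469, with a −log10 p-value of 27.3 in siHic5/siNS, 29.9 in siCHD9/siHic5 and 15.5 in siCHD9/siNS. Its sequence, shown above, held an AP-1 match centred 27 bp from the summit. Another, 481 kb from the TSS of TSN, had 14.7 in siCHD9/siNS, and 1 whose nearest TSS was that of DNAH5 had 14.4. A further GBR, in an intron of LRMDA and 1094 kb from the TSS of KCNMA1, had 14.2. The stronger of the 2 GBR in siBRM/siNS lay in an intron of CDH22, a cadherin gene, at chr20:46255189-46255737, and had −log10 p-values of 33.7 in siHic5/siNS, 28.2 in siCHD9/siHic5 and 12.5 in siBRM/siNS.

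AP-1 matches were more frequent at BRM-lost than at CHD9-lost GBR. In the 1-kb window centred on the siHic5/siNS summit, 153 of 268 BRM-lost GBR (57.1%, Wilson interval 51.1 to 62.9%) and 317 of 783 CHD9-lost GBR (40.5%, interval 37.1 to 44%) held at least 1 match (odds ratio 1.96, Fisher's exact test, p = 5.48e-05 adjusted over 16 motifs). The share was 34.4% of GBR lost in both (adjusted p = 2.57e-12 against the BRM-lost GBR) and 58.1% of GBR called in both (adjusted p = 0.866), by Fisher's exact test. Over all 9533 windows it was 37.1%. In windows 5 kb to either side, the share was 14.7% for BRM-lost, 14.9% for CHD9-lost and 16.5% for GBR lost in both. The 2 classes with a siCHD9/siHic5 peak thus stood at 57.1% and 58.1%, and the 2 without one at 40.5% and 34.4%.

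The AP-1 difference was also present close to the summit. Within 200 bp, 38.1% of BRM-lost, 22.1% of CHD9-lost, 17.2% of GBR lost in both and 39.3% of GBR called in both held a match (BRM-lost against CHD9-lost, odds ratio 2.17, Fisher's exact test, p = 1.21e-05 adjusted over 16 motifs). Among the 153 BRM-lost GBR with a match, the nearest one was at a median of 68.0 bp from the summit, and in 57 it was within 50 bp. The medians were 87.0 bp at CHD9-lost GBR and 97.0 bp at GBR lost in both. Matches numbered 196 in all, and 34 GBR held 2 or more, with 3 as the most in 1 GBR.

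The AP-1 difference remained in common odds ratios over groups of like strength or like GC content. The AP-1 share of BRM-lost GBR was 68.2% of the 22 in the weakest and 50% of the 100 in the strongest of 5 strength groups cut over the blocked GBR, against 32.6% and 38.8% of the CHD9-lost GBR in the same groups. In the 3 groups between, from weaker to stronger, it was 60.9% of 23, 56.5% of 46 and 62.3% of 77. The CHD9-lost shares there were 48.8% of 41, 49.5% of 93 and 39.9% of 188. No single group was tested, and shares within single groups of GC content were not computed. Within 5 other strength groups, cut over the BRM-lost and CHD9-lost GBR alone, the common odds ratio was 1.92 (Cochran-Mantel-Haenszel chi-square test, adjusted p = 1.06e-04). The median GC content of the window was 45.0% at BRM-lost and 48.4% at CHD9-lost GBR, and within 5 groups by GC content the common odds ratio was 1.86 (same chi-square test, adjusted p = 3.08e-04). With all lists cut at 14.2 and the classes drawn anew, the shares were 57.7% of 52 and 40.4% of 1350 (odds ratio 2.01). The adjusted p of 0.117 by Fisher's exact test no longer passed the threshold. Of the 48 BRM-lost GBR whose siCHD9/siHic5 peak was at or above 14.2, 60.4% held a match, against 56.4% of the other 220.

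The same calls were also compared among the 2474 shared GBR, those with a siNS/siNS peak, which the rule had left out. Of the 76 shared GBR called in siCHD9/siHic5 and absent from siBRM/siHic5, 39.5% held an AP-1 match, against 24.6% of the 520 with the opposite calls (odds ratio 2.00, Fisher's exact test, p = 0.0323 adjusted over 16 motifs). At the blocked GBR these shares were 57.1% and 40.5%, with an odds ratio of 1.96. This comparison was chosen after the blocked GBR had been examined.

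AP-1 matches did not stand mainly beside GREs at the 268 GBR. A GRE, allowing 1 mismatch among the 10 bases that define it, was found in 122 (45.5%), of which 60 also held AP-1 and 62 did not. A further 93 held AP-1 without a GRE, and 53 held neither. AP-1 was thus present in 49.2% of the GBR with a GRE and 63.7% of the 146 without. The corresponding shares were 35.3% and 45.6% at CHD9-lost GBR, 28.0% and 40.5% at GBR lost in both, and 55.7% and 60.6% at GBR called in both. In 1 of the 60 GBR with both motifs a GRE and an AP-1 match overlapped.

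The GRE itself did not separate the classes by this count. Its share was 45.5% at BRM-lost, 49.6% at CHD9-lost, 48.8% at GBR lost in both and 50.4% at GBR called in both, and none of the 3 comparisons passed the test (adjusted p between 0.459 and 0.529). Over all 9533 windows the share was 53.6%. In windows 5 kb to either side it was 9.33% for BRM-lost and 13.1% for CHD9-lost GBR. GRE matches lay close to the summit, with the nearest at a median of 22.0 bp and within 50 bp in 90 of the 122 GBR. The best match to the full element over 12 positions had a median of 9 identities. It reached 11 in 13 GBR and 12 in 0.

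**Figure D3:**
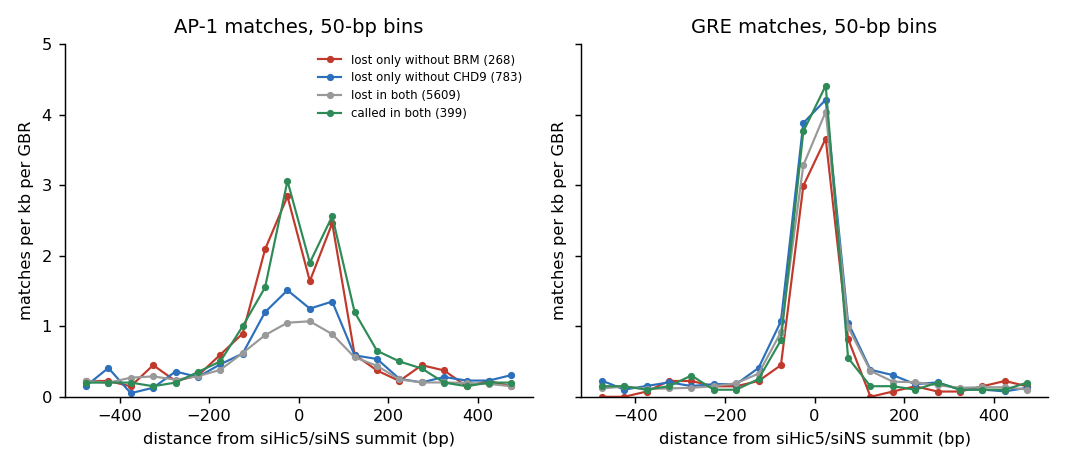
Lines give AP-1 matches (left) and GRE matches (right) per kb and per GBR in 50-bp bins by distance from the siHic5/siNS summit, for the 4 classes of blocked GBR. From 50 bp before the summit up to it, AP-1 stood at 2.84 for BRM-lost and 3.06 for GBR called in both, against 1.51 for CHD9-lost and 1.05 for GBR lost in both, while GRE ran from 2.99 to 3.88 over the 4 classes. In the next bin, from the summit to 50 bp after it, the AP-1 values were closer, at 1.64, 1.90, 1.25 and 1.07 in the same order.

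ETS matches, the words CAGGAAAC, CAGGAAAT, CAGGAAGC, CAGGAAGT, CCGGAAAC, CCGGAAAT, CCGGAAGC and CCGGAAGT on either strand, were found in 37.3% of BRM-lost and 40.0% of CHD9-lost windows (odds ratio 0.894, Fisher's exact test, adjusted p = 0.682) and in 37.9% of all windows. In windows 5 kb to either side the ETS shares were lower, at 26.5%, 26.6% and 27.4% in the same order. The C/EBP word TTGCNNAA, bound by a family of leucine zipper factors, was found within 200 bp of the summit in 16.4% of BRM-lost and 7.15% of CHD9-lost GBR (odds ratio 2.55, Fisher's exact test, adjusted p = 2.44e-04). The share was 11.1% of all siHic5/siNS GBR and 11.4% of blocked GBR, between these 2 classes. In the 1-kb window these shares were 44% and 36.1% (Fisher's exact test, adjusted p = 0.0958), with 40.7% of all windows. The GATA word AGATAA was found in 46.3% and 35.5% of the 1-kb windows (odds ratio 1.56, Fisher's exact test, adjusted p = 0.0175) and in 41.4% of all windows. Within 200 bp its shares were 10.8% and 6.77% (Fisher's exact test, adjusted p = 0.187), and in windows 5 kb away they were 47.8% and 41.5%. Against GBR lost in both or called in both, neither C/EBP nor GATA passed the test at either window.

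The other 11 motifs did not pass the test in any of the 3 comparisons of 1-kb windows. Among all 9533 windows the E-box CAGCTG was found in 44.2% (45.9% of BRM-lost), the TEAD word GGAATGT in 22.7% (21.6%), the RUNX word TGTGGTT in 20.9% (20.5%), the KLF/SP word GGGCGGG in 15.2% (11.6%) and the FOX word TGTTTAC in 14.4% (14.2%). NF-kB was found in 6.46% (2.99%), the POU word ATGCAAAT in 5.04% (3.73%), the STAT word TTCCNGGAA in 4.11% (2.24%), NF1 in 3.77% (2.24%), CTCF in 1.36% (0.373%) and the cAMP response element TGACGTCA in 1.07% (0.373%). A match states that the letters are present and not that a factor was bound.

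**Figure D4:**
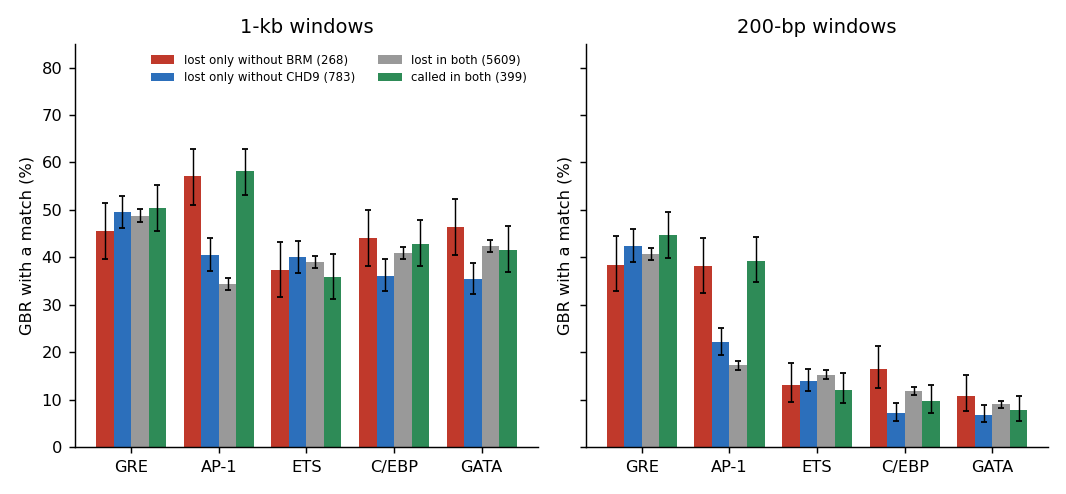
Bars give the percent of GBR in each class of blocked GBR with at least 1 match of 5 motifs in 1-kb windows (left) and 200-bp windows (right), with Wilson 95% intervals for counting error. The AP-1 bars of BRM-lost GBR and GBR called in both stand above the other 2 classes in both windows, and the GRE and ETS intervals overlap.

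The BRM-lost GBR lay mostly away from gene starts, as did the other classes. The distance from summit to the nearest protein-coding TSS had a median of 65.4 kb, with quartiles of 19.6 and 244 kb, and the medians of the other classes ran from 47.7 kb at CHD9-lost to 55.0 kb at GBR called in both. Introns of protein-coding genes held 107 (39.9%), intergenic sequence 105 (39.2%), noncoding genes 48 (17.9%) and exons 8 (2.99%). Over all siHic5/siNS GBR, introns held 44% and intergenic sequence 34.8%, and 4.56% lay within 1 kb of a TSS. Within 1 kb of a TSS were 5 of 268 (1.87%, Wilson interval 0.799 to 4.29%) and 35 of 783 CHD9-lost GBR (4.47%, interval 3.23 to 6.15%), a difference that did not pass the test (odds ratio 0.406, Fisher's exact test, p = 0.0634). It passed when a summit inside the peak was required for a call (1.5% against 4.45%, Fisher's exact test, p = 0.0246). None of the 8 features of position passed against any of the 3 classes after adjustment over the 8 (lowest adjusted p = 0.145, Fisher's exact test). Another siHic5/siNS GBR stood within 10 kb of 34.0% of BRM-lost and 32.2% of CHD9-lost GBR. The 268 were spread over 23 chromosomes, with at most 30 on 1, and 20 had another BRM-lost GBR within 100 kb.

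Of the 10 BRM-lost GBR that were strongest in siHic5/siNS by −log10 p-value, none had a siCHD9/siNS or siBRM/siNS peak, and 6 held an AP-1 match in the 1-kb window. One was at chr12:115151414-115151940, intergenic and 468 kb upstream of TBX3, a T-box transcription factor gene, with a −log10 p-value of 72.2 in siHic5/siNS and 28.9 in siCHD9/siHic5. It was also among the 5 strongest in siCHD9/siHic5, and its AP-1 match was centred 16 bp from the summit. Another was at chr7:92633265-92634121, in an intron of CDK6, a cell cycle kinase gene, with values of 66.7 and 17.2 and a siBRM/siHic5 peak 7.61 kb away. Its GRE was centred 23 bp from the summit.

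Next in order was chr3:109806940-109807610 in a noncoding gene, 470 kb upstream of DPPA4, with a value of 60.3 in siHic5/siNS and an AP-1 match 75 bp from the summit. The GBR at chr7:123024922-123025704, 29.5 kb upstream of the taste receptor gene TAS2R16, had 58.0 and a GRE 20 bp from the summit. The GBR at chr19:45424185-45424900 had 57.9 and lay in an intron of the annotated ERCC1 gene, a DNA excision repair gene, 0.598 kb upstream of its main TSS, with an AP-1 match 70 bp from the summit. IL17REL held one in an intron (57.2) with a GRE 4 bp from the summit. At chr1:94544914-94545507, 3.5 kb upstream of F3, which encodes tissue factor, the initiator of coagulation, the values were 57.1 in siHic5/siNS and 21.3 in siCHD9/siHic5, with a siBRM/siHic5 peak 6.18 kb away. This GBR held a GRE 6 bp and an AP-1 match 23 bp from the summit, on either side of it. The weakest of the 10 were 255 kb from the TSS of DYSF and in POU5F1B, at 54.4 each. In the DYSF window none of GRE, AP-1 and ETS was matched.

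The 5 highest −log10 p-values in siCHD9/siHic5 were at the GBR whose nearest TSS was that of SORCS1 (30.9), ZNF469 (29.9), TGM4 (29.1), TBX3 (28.9) and CDH22 (28.2). At ZNF469 this value was above its siHic5/siNS value of 27.3, and at the other 4 it was below. The GBR in the intron of TGM4, a transglutaminase gene, had a siBRM/siHic5 peak 0.774 kb away and a GRE centred on its summit. The GBR named by SORCS1, at chr10:106506427-106507258, was intergenic and 658 kb from the TSS of that gene. This GBR had a value of 50.1 in siHic5/siNS, a GRE 29 bp from the summit and its nearest siBRM/siHic5 peak 52.1 kb away.

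The 5 GBR nearest to a TSS were at CXCL8, CCDC57, NPAS3, MAFF and ERCC1. At CXCL8 (chr4:73740331-73740798) the summit was 10 bp upstream of the TSS, and the −log10 p-values were 38.3 in siHic5/siNS and 13.5 in siCHD9/siHic5, with the nearest siBRM/siHic5 peak 265 kb away. Its AP-1 match, shown above, was centred 124 bp from the summit. At NPAS3, a neuronal transcription factor gene, the values were 18.7 and 14.1, at CCDC57 they were 17.8 and 12.6, and at MAFF 14.5 and 11.9. In the 1-kb windows at NPAS3 and MAFF, GRE, AP-1 and ETS were each without a match.

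Of 12 genes for AP-1 subunits and related leucine zipper proteins, 4 (33.3%) had a BRM-lost GBR within 100 kb of the TSS, against 399 of 20046 protein-coding genes (1.99%), a description of a short list. These were MAFF, a small Maf gene (0.581 kb), JUN (2.23 kb), JUNB (4.80 kb) and FOSB, whose GBR was the one at ERCC1, 43.5 kb away. The −log10 p-values in siHic5/siNS were 14.5 at MAFF, 12.3 at JUN and 17.4 at JUNB. Of 30 classical glucocorticoid target genes 1 had such a GBR, DUSP1, which encodes a phosphatase that inactivates MAP kinases. This GBR, 4.6 kb upstream at chr5:172775554-172776013, had values of 36.2 in siHic5/siNS and 23.7 in siCHD9/siHic5, and a siBRM/siHic5 peak stood 2.60 kb away. Neither a GRE nor AP-1 was found in its 1-kb window. Of 20 ETS factor genes 1 had one, ETV4 (10.1 kb), and of 18 osteoblast genes 1, ALPL (77.7 kb). The counts were 0 of 26 SWI/SNF and CHD remodeler genes and 0 of 27 focal adhesion genes.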

How the data were processed

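GR ChIP-seq peaks of 12 ChIP and 6 input libraries were analysed as 6 lists. According to the labels and methods, the authors aligned reads to GRCh38/hg38 using BWA, left out duplicates and mitochondrial reads, and ran MACS2 under the IDR framework, with replicates pooled. The deposited lists hold for each peak a signal value, the enrichment over background, and its −log10 p-value and −log10 q-value. The lists carry no read depth, and depth was not analysed here; it acts on which weak peaks are called. Versions of these tools are not given in the sources used here.

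From these lists, overlaps of at least 1 bp were computed in Python 3.11.15 (pandas 2.3.3, NumPy 2.4.6) and checked against bedtools 2.31.1 on simulated peaks. Sequence came from GRCh38 (pysam 0.24.0) and genes from GENCODE 44. All peaks lay within the reference sequences. Motifs were counted as words on both strands in 1-kb and 200-bp windows. Fisher's exact tests were 2-sided (SciPy 1.17.1). Adjusted values are Benjamini-Hochberg values over the 16 motifs, the 8 position features or the 2 single-depletion lists, and the comparisons of single-depletion calls and TSS with CHD9-lost GBR are not adjusted. Cochran-Mantel-Haenszel tests used statsmodels 0.14.6. Coordinates are given from 1.

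The GBR named were the 10 strongest in siHic5/siNS, the 5 strongest in siCHD9/siHic5, the 5 strongest in a single-depletion list, the 5 nearest to a protein-coding TSS and, for each gene list, the GBR nearest to a member gene within 100 kb. JUN, JUNB and FOSB were named after their values were seen, since 4 genes of their list had a GBR. The members and lists were chosen with earlier results of these data known. Some GBR that this rule selects, and the POU5F1B sequence, are not reported here.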

Additional observations from a re-analysis of the deposited data

How the results depend on the processing

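Peaks were pooled over replicates, so leaving out a replicate was not possible. No paired analysis was possible because each list is 1 value per condition and carries no replicate number. The number of BRM-lost GBR was 267 with a summit inside the peak or with peaks within 500 bp counted as calls, but 52 with every list cut at a −log10 q-value of 14.2, 34 at 20 and 102 with the 4 longer lists reduced to their 2400 strongest peaks (siCHD9/siNS and siBRM/siNS hold fewer and stayed whole). Each of these alternatives drew the classes anew, so the GBR in them changed. The odds ratio for a siCHD9/siNS call turned to 0 when lists were cut at 14.2 (0 of 52 against 0.519% of 1350) or at 20 (0 of 34 against 0.282% of 1063), where almost no siCHD9/siNS peak at these GBR remained. The odds ratio for a siBRM/siNS call was 0 (Fisher's exact test, p = 0.00586) with the 2400 strongest peaks, and at a cut of 20 it could not be computed. For AP-1 the odds ratio stayed between 1.74 and 2.17 under all 9 alternatives, but the adjusted p of Fisher's exact test no longer passed with lists cut at 14.2 (2.01, p = 0.117), at 20 (1.89, p = 1.00) or to 2400 peaks (1.74, p = 0.201), where fewer GBR were left. The alternatives by GC content and among shared GBR were added after seeing the data. For GRE the odds ratio turned above 1 at a cut of 20 (1.2) and with 2400 peaks (1.55), and for ETS likewise (1.07 and 1.05), none passing the test. The difference in TSS within 1 kb passed with a summit inside the peak (0.326) and with peaks within 500 bp as calls (0.383). No other alternative changed a direction or a call. The spread between replicates and the read depth behind a missing peak were not analysed here.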
